A study of Mus musculus with 8 samples.

Results

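Connexins are membrane proteins that assemble into ring-shaped connexons, and connexons of adjoining cells dock to form gap junction channels for ions and small molecules. Epithelial cells carry several connexins at once, and which ones they carry sets which channels they can form. In the thymus, gap junctions join thymic epithelial cells, and Gja1, the gene of connexin Cx43, is the connexin best known there. The genes described are the 7 connexins Gjb5, Gjb2, Gjb6, Gja1, Gja4, Gja5 and Gjc1, of 22911 genes that a probe of the array names. They were chosen by gene symbol from the connexin family with the intensity values of these arrays already known, so their levels and differences are a description and carry no test.

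The cells were TEC100.4, an immortalized mouse line whose labelled origin is cortical thymic epithelium, in which doxycycline induces a mutant form of TFII-I, the transcription factor that Gtf2i encodes. The 4 groups, of 2 one-colour arrays each, were the line TEC100.4/TFII-I-δmt with doxycycline, the same line without it, the line TEC100.4/TFII-I-βmt with doxycycline and that line without it. Culture with or without doxycycline lasted 24 h. The genotype labels name the wild type isoform for the untreated samples, while their titles name the mutant lines without the drug, and the titles were used here. The labels do not say whether a line is 1 clone, nor whether replicate arrays stem from separate cultures, so the spread and every p-value may be technical. A treated line that lacks the mutant was not analysed here, so the drug and the mutant cannot be told apart.

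The 8 arrays shared 1 slide, whose first row held the treated cells' RNA and whose other row held the untreated cells' RNA, and the row cannot be told apart from the treatment. With doxycycline 43426 to 45158 probes of an array were well above background, against 39579 to 40760 without it. The untreated δ replicate 1 had 156 deviant tiles of 1008, a tile being a square of 8 by 8 spots, against at most 9 on any other array. No connexin member with a level rests on those tiles. The brightest Gtf2i probe had levels of 5.28 and 5.26 with doxycycline and 5.29 and 5.07 without it in the δ line, and 4.58 and 4.66 with it and 4.39 and 4.63 without it in the β line. Its differences with doxycycline were 0.09 in the δ line and 0.11 in the β line (limma, adjusted p = 0.725 and 0.716). The Gtf2i probes did not give the same picture. The dimmest of the 3, A_55_P2040907, read -1.80 and -1.53 with doxycycline and -1.67 and -1.93 without it in the δ line, and -1.05 and -1.01 with it and -2.13 and -2.56 without it in the β line. Its differences with doxycycline were 0.14 ± 0.19 in the δ line and 1.31 ± 0.19 in the β line (limma over all probes kept, adjusted p = 0.759 and 0.0931), so the treated β arrays stood clear of the untreated ones without passing the threshold. The third probe, A_52_P442585, had 0.05 ± 0.10 and 0.15 ± 0.10. Between the lines the brightest probe was higher in the δ line by 0.65 with doxycycline and 0.67 without it (limma, adjusted p = 0.0207 and 0.0195). The third probe had 0.51 and 0.61 (limma over all probes kept, adjusted p = 0.0407 and 0.0232), and the dimmest had -0.64 and 0.54 (0.101 and 0.154). The part of these line differences in the connexin differences was not tested. The sources used here do not say which probe reads the introduced mutant. Of the 7 genes fixed as cortical thymic epithelial markers, Ctsl, Prss16 and Foxn1 were well above background on all 8 arrays and Psmb11, a proteasome subunit that defines cortical cells, on none. The epithelial adhesion genes Epcam and Cdh1 were well above background on 1 and 3 arrays, while the keratins Krt5, Krt14, Krt8 and Krt18 were so on all 8. All 5 fibroblast markers, including Col1a1, were well above background on all 8 arrays, so the line's labelled cell type is only partly borne by its markers. The leukocyte gene Ptprc and the thymocyte gene Rag1 were on none, and so were the endothelial genes Tie1 and Emcn. Yet 4 of the 6 thymocyte markers were well above background on all 8 arrays. So were 4 of the 8 endothelial markers, Pecam1 and Kdr among them.

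Promoters from RefSeq (assembly GRCm38.p6) were found for 6 of the 7 genes, all but Gjc1. The 3 shown belong to the genes on which the values below turn. Gja1 differed most between the lines, Gja5 had the largest difference with doxycycline in the β line, and the Gjb5 levels of the δ line all lay below those of the β line. Each run is the 250 bases before the annotated start, 5′ to 3′ on the gene's strand, and capitals mark matches on either strand to 4 motifs. These were the E-box (CANNTG), a class of site that TFII-I is known to bind among others. The GC box that Sp1 binds was searched as GGGCGG. The AP-1 site was written TGANTCA, with N for any base. The TATA box was the letters TATAAA. Gjb5 is at chr4:127358165-127358414 on the minus strand, Gja1 at chr10:56377050-56377299 on the plus strand and Gja5 at chr3:97032152-97032401 on the plus strand.
Gja1: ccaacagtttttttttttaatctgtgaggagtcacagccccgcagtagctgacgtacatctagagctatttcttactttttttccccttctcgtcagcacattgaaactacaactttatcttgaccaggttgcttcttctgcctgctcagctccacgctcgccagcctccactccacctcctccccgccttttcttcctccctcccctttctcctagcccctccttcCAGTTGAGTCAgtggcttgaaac
Gja5: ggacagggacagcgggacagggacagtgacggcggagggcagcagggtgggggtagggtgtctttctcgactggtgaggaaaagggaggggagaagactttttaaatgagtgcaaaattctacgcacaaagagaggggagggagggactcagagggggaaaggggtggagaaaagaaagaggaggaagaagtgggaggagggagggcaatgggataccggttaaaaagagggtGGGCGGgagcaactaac
Gjb5: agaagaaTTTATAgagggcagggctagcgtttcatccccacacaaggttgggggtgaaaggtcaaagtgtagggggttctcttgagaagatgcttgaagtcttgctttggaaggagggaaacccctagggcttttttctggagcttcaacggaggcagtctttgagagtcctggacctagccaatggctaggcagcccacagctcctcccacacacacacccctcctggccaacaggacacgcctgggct
In the Gja1 run the E-box match begins at position -23 and the AP-1 match at -19, counted back from the start, and the 2 overlap within the capitals. Gja5 has 1 GC box match, at -17, and Gjb5 has 1 TATA box match on the opposite strand, at -243. Among the promoters not shown, Gjb2 has 1 E-box match and 2 GC box matches, Gjb6 has 1 E-box match and Gja4 has 1 GC box match. The stricter E-box CACGTG occurs in none of the 6. Of 32536 promoters of the same length, 66.2% hold an E-box match, 6.04% the stricter one, 33% a GC box, 6.73% an AP-1 site and 12.3% a TATA box. A match is a run of letters and was not tested as a binding site.

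Of the 11 probes of the 7 genes, 8 passed the filter on dim probes, which asks for a signal well above background on each array of some group, and they gave levels for 5 genes. A level here is the log2 of a probe's intensity minus the array's 75th percentile, so 0 is the brightness of that percentile. Levels of different probes are not set against each other, because probes differ in brightness for the same amount of RNA. Gjb2 and Gjb6, the Cx26 and Cx30 genes that are neighbours on chromosome 14 and act together in the inner ear and epidermis, were not well above background on any of the 8 arrays with their 1 and 2 probes. No order between groups can be read from them. Gjb5, Gja1, Gja4, Gja5 and Gjc1 were well above background on all 8 arrays with each of their probes.

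Gjb5, an epidermal connexin, had levels of 1.82 and 1.82 with doxycycline and 1.84 and 1.85 without it in the δ line. In the β line its levels were 2.12 and 2.17 with doxycycline and 2.03 and 2.13 without it. Every δ array was thus below every β array, and the doxycycline arrays of the β line overlapped the untreated ones. The difference with doxycycline was -0.03 ± 0.09 in the δ line and 0.07 ± 0.09 in the β line (log2, SE of the limma fit, 2 arrays a group). The δ line minus the β line came to -0.33 ± 0.09 with doxycycline and -0.24 ± 0.09 without it.

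Gja1 showed the widest range of group means among the 5 genes, 1.05 on the log2 scale. Its brightest probe, A_52_P174915, had levels of 0.14 and 0.10 with doxycycline and 0.66 and 0.44 without it in the δ line. In the β line it had 1.17 and 1.12 with doxycycline and 1.16 and 1.17 without it. The 2 doxycycline arrays of the δ line were the lowest of the 8, the untreated δ arrays came next, and the 4 β arrays lay close together at the top. The δ line minus the β line was -1.03 ± 0.10 with doxycycline, which is 2.04-fold lower in the δ line, and -0.61 ± 0.10 without it. The difference with doxycycline was -0.43 ± 0.10 in the δ line and -0.02 ± 0.10 in the β line, and the δ effect minus the β effect was -0.41 ± 0.15.

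The other probes of Gja1 are annotated to the same transcript and did not give the same picture. A_55_P2800487 had levels of -0.19 and -0.11 with doxycycline and -0.30 and -0.49 without it in the δ line, and 0.38 and 0.49 with it and 0.01 and -0.02 without it in the β line. On this probe doxycycline arrays lay above untreated arrays in both lines, by 0.24 ± 0.11 in the δ line and 0.44 ± 0.11 in the β line. A_55_P2741907 had levels of -2.12 and -2.03 with doxycycline and -1.79 and -2.14 without it in the δ line, and -1.50 and -1.47 with it and -2.02 and -1.99 without it in the β line. Its differences with doxycycline were -0.11 ± 0.14 in the δ line, where the groups overlap, and 0.52 ± 0.14 in the β line. So the probes disagreed on what doxycycline did to Gja1 in either line. With doxycycline all 3 probes were lower in the δ line than in the β line, by log2 differences of -1.03, -0.59 and -0.59. Without doxycycline the differences were -0.61, -0.39 and 0.04, and the last of these, on the dimmest probe, came with overlapping groups. Averaging the 3 probes turned the β difference with doxycycline to 0.31 and left -0.10 in the δ line, and it left -0.74 and -0.32 between the lines with and without the drug. Without the untreated δ replicate 1, the δ difference with doxycycline on the brightest probe was -0.32, and without the untreated δ replicate 2 it was -0.54.

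**Figure D1:**
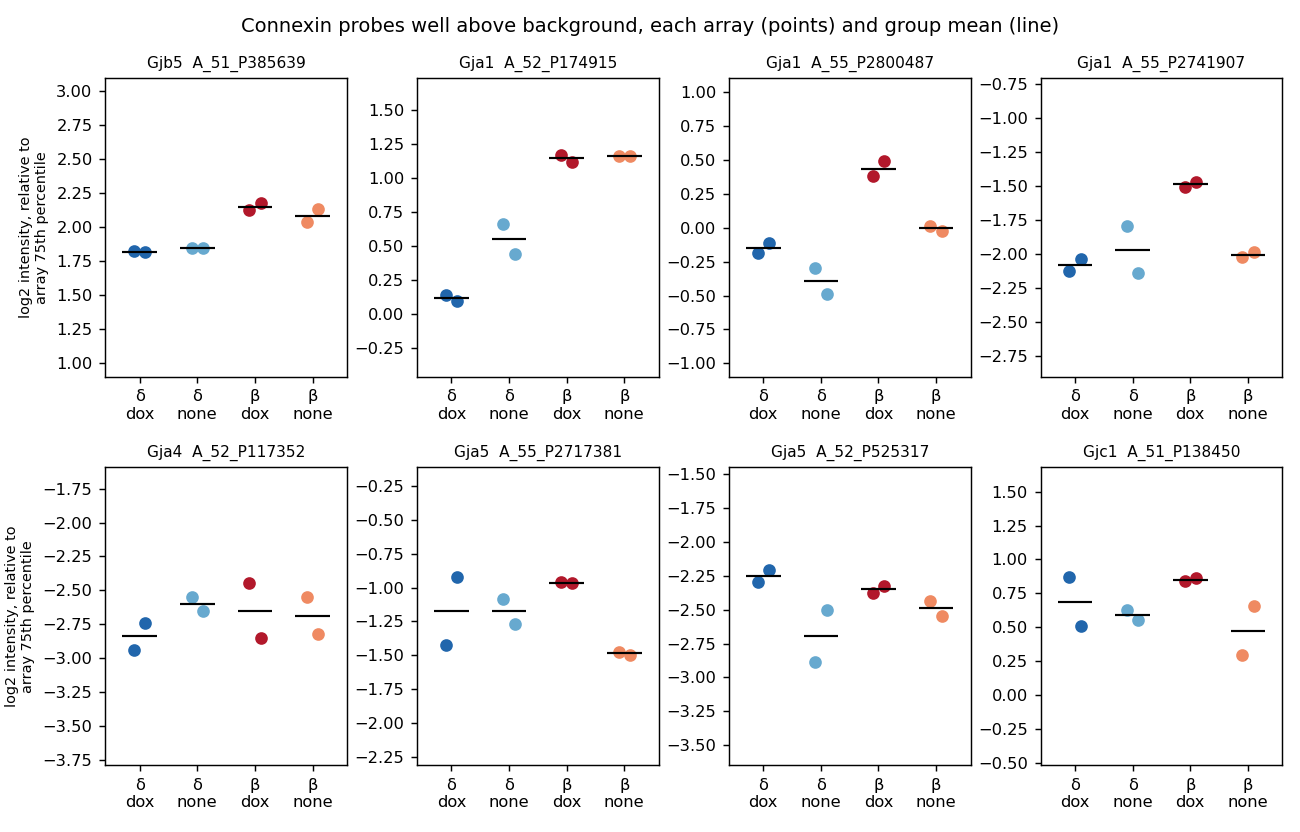
Levels of the 8 probes of the connexins Gjb5, Gja1, Gja4, Gja5 and Gjc1 that were well above background, with the 4 groups on the horizontal axis and log2 intensity relative to the array's 75th percentile on the vertical axis, which spans the same width in every panel but has its own start. Points are arrays and lines are group means of 2 arrays. On the brightest Gja1 probe the δ arrays with doxycycline lie at 0.14 and 0.10 and the untreated β arrays at 1.16 and 1.17, while the other Gja1 probes order the groups differently.

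Gja4 and Gja5, the Cx37 and Cx40 genes, encode the connexins of arterial endothelium, and Gja5 is also carried by the atria and conduction system of the heart. Gja4 was dim and its arrays scattered. Its levels were -2.94 and -2.74 with doxycycline and -2.55 and -2.66 without it in the δ line, and -2.45 and -2.86 with it and -2.55 and -2.82 without it in the β line. The difference with doxycycline was -0.24 ± 0.17 in the δ line, without overlap, and 0.04 ± 0.17 in the β line, where the groups overlap. Leaving out the β replicate 1 with doxycycline made the β value -0.17, and leaving out replicate 2 made it 0.24.

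Gja5 has 2 probes, annotated to different transcripts. A_55_P2717381 had levels of -1.42 and -0.93 with doxycycline and -1.09 and -1.27 without it in the δ line. In the β line it had -0.96 and -0.97 with doxycycline and -1.47 and -1.50 without it. The doxycycline arrays of the β line stood clear of the untreated ones, by 0.52 ± 0.17, which is 1.44-fold, while in the δ line the doxycycline arrays fell on either side of the untreated ones, with a difference of 0.00 ± 0.17. That δ difference was 0.25 without the doxycycline-treated δ replicate 1 and -0.25 without replicate 2. The dimmer probe, A_52_P525317, had levels of -2.29 and -2.21 with doxycycline and -2.89 and -2.50 without it in the δ line, and -2.38 and -2.32 with it and -2.43 and -2.54 without it in the β line. On this probe the larger difference with doxycycline was in the δ line, 0.44 ± 0.15, against 0.14 ± 0.15 in the β line. The 2 probes therefore place the larger Gja5 difference in different lines.

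Gjc1, the Cx45 gene of early heart and smooth muscle, had levels of 0.87 and 0.51 with doxycycline and 0.63 and 0.55 without it in the δ line. In the β line it had 0.84 and 0.86 with doxycycline and 0.29 and 0.66 without it. The β groups do not overlap and the δ groups do. The difference with doxycycline was 0.10 ± 0.17 in the δ line and 0.38 ± 0.17 in the β line. The β value was 0.19 without the untreated β replicate 1 and 0.56 without replicate 2.

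Set in order by group mean, Gja1 on its brightest probe ran from the untreated β line (1.17) and the treated β line (1.15), whose means differ by less than the spread between arrays, down to the untreated δ line (0.55) and the treated δ line (0.12). Gjb5 ran from the treated β line (2.15) and the untreated β line (2.08), which overlap, to the untreated δ line (1.84) and the treated δ line (1.82). Gja5 on its brightest probe had its highest mean in the treated β line (-0.96), which the treated δ line overlaps, and the treated δ line (-1.17) and untreated δ line (-1.18) overlap above the untreated β line (-1.49). Gjc1 had its highest mean in the treated β line (0.85), then came the treated δ line (0.69), the untreated δ line (0.59) and the untreated β line (0.47), and each overlaps the next. For Gja4 the group means lay between -2.60 in the untreated δ line and -2.84 in the treated δ line, with the β line between them and overlapping both.

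Counted over the 5 genes with 1 probe each, the groups with and without doxycycline did not overlap for 3 in the δ line, all lower with the drug, and for 2 in the β line, both higher, while over all 19024 genes tested 58% and 46.9% did not overlap. Between the lines, 2 of 5 did not overlap with doxycycline and 3 of 5 without it, against 68.5% and 53% of all genes. By the limma fit (adjusted p under 0.05 over all genes), 14 genes or 0.0736% passed with doxycycline in the δ line and 47 or 0.247% in the β line. Of the 5 connexins 0 were among them. An unadjusted p under 0.05 was reached by 1 of the 5 in each line, beside 2856 of all 19024 genes in the δ line and 3465 in the β line. Between the lines 15.3% of genes passed with doxycycline and 13.2% without it, and in both cases 1 of the 5 did, Gja1. For the difference between the lines in the doxycycline effect 0.00526% passed, which is 1 gene and no connexin. There 1 of the 5 was at an unadjusted p under 0.05, beside 1433 of all 19024 genes. Since the genes were listed with these values known, nothing is read from these counts. Of all genes passing, 28.6% rose in the δ line and 46.8% in the β line, and these shares became 0% and 23.1% with another background correction, 11.1% and 28.3% with quantile normalization, and 28.6% in both lines with median centring. The median difference of the 5 was -0.03 in the δ line and 0.07 in the β line with doxycycline, beside 0.00 and 0.03 over all genes. It was -0.21 and 0.08 between the lines with and without the drug, beside -0.01 and 0.02 over all genes.

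The genes with the smallest departure from the brightest Gja1 probe over the 8 arrays, each centred on its own mean, were Insig1, Dthd1 and Rbm47, with root mean square differences of 0.0499, 0.0794 and 0.0803 on the log2 scale. Insig1, which retains the sterol sensor in the endoplasmic reticulum, had levels of -1.97 and -1.97 with doxycycline and -1.35 and -1.60 without it in the δ line. In the β line it averaged -1.02 with doxycycline and had -0.93 and -0.91 without it. Gja1 was the only one of the 5 connexins whose group means spanned 1 or more, the span set for this search. The likeness is to 1 of its 3 probes.

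Other connexin genes of the mouse were read in the same fits. Gja6, Gjd4 and Gje1 were not well above background on any array, and 1 of those described here, Gjb1, passed the threshold.

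Gjb1, the Cx32 gene of liver and of myelinating Schwann cells, had levels of 0.48 and 0.34 with doxycycline and 0.96 and 0.74 without it in the δ line. In the β line it had 0.87 and 1.03 with doxycycline and 0.65 and 0.65 without it. The doxycycline arrays were the lower ones in the δ line and the higher ones in the β line, by -0.45 ± 0.12 and 0.30 ± 0.12 (adjusted p = 0.238 and 0.260). With doxycycline the δ line was lower by -0.55 ± 0.12 (adjusted p = 0.0323). That call was lost without any 1 of the 4 arrays compared, with an adjusted p of 0.135 and 0.196 without the treated δ replicates 1 and 2 and of 0.0763 and 0.127 without the treated β replicates 1 and 2. A spot of this probe lies in a deviant tile of the untreated δ replicate 1.

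Gjd3, a connexin of the heart's conduction system in the mouse, had the largest difference with doxycycline among the connexins described here, 1.43 ± 0.46 in the β line (adjusted p = 0.188). Its β arrays with doxycycline read 0.83 and 2.12, against 0.35 and -0.26 without it, and its δ arrays read 0.56 and 0.85 with doxycycline and 0.34 and -0.30 without it. The spread between the treated β arrays was nearly as large as the difference. Gja10, a connexin of the retina, was at a δ minus β difference of -0.39 ± 0.19 with doxycycline (adjusted p = 0.223), which was -0.65 without the treated δ replicate 1 and -0.14 without replicate 2. Gja3, a lens connexin, Gjc3 and Gjd2, a connexin of neurons, had adjusted p-values of 0.312 or more in every comparison within and between the lines.

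**Figure D2:**
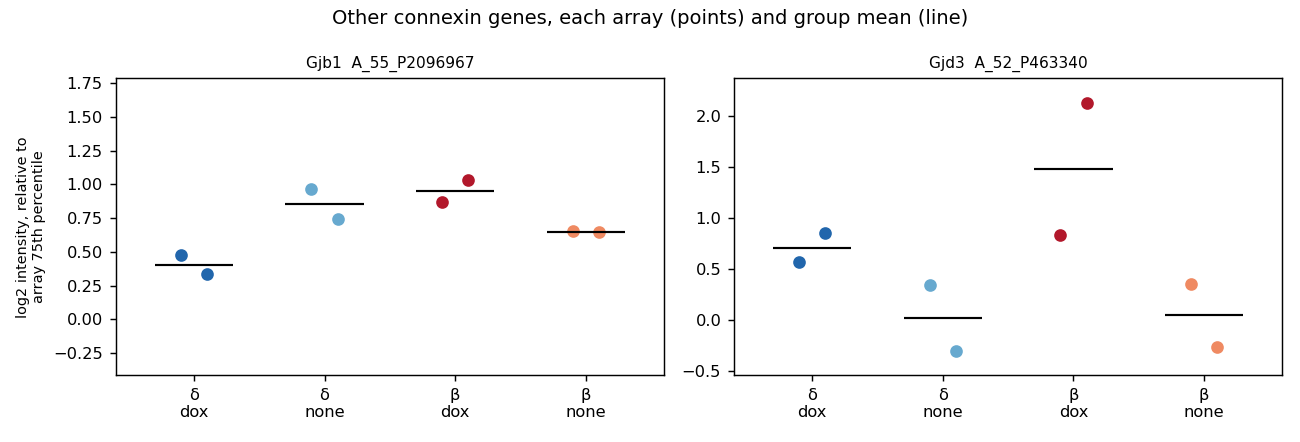
Levels of Gjb1 and Gjd3 in the 4 groups, as log2 intensity relative to the array's 75th percentile. Points are arrays and lines are group means of 2 arrays. The treated δ arrays of Gjb1 lie lowest, at 0.48 and 0.34, and the treated β arrays of Gjd3 lie far apart, at 0.83 and 2.12.

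**Figure D3:**
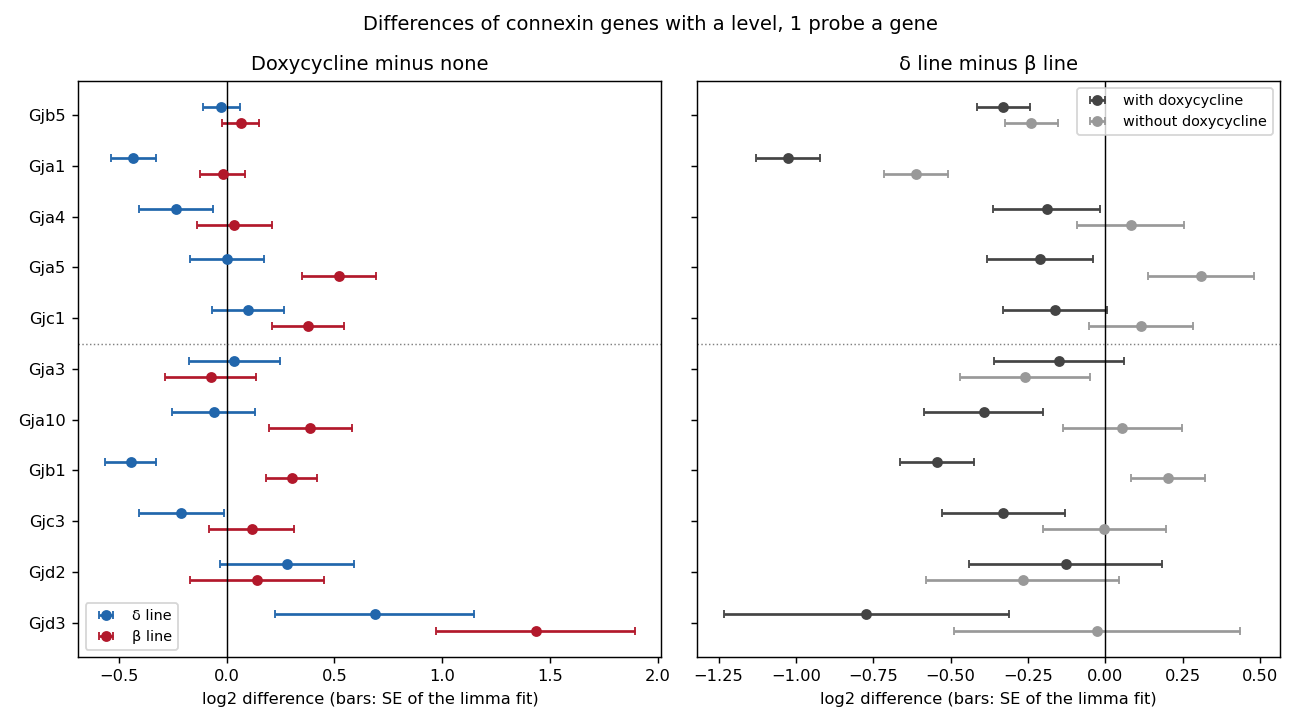
Log2 differences of the connexin genes described here that have a level, 1 probe a gene, with bars for the SE of the limma fit on 2 arrays a group. The left panel gives doxycycline minus none in each line and the right panel the δ line minus the β line in each treatment, with the 5 listed genes above the dotted line. Gja1 lies at -1.03 with doxycycline in the right panel, and Gjd3 at 1.43 in the β line in the left panel.

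Some marker lists differed between the lines in their summed level. That of the 6 epithelial markers, as the log2 of summed intensities, was 3.65 to 3.72 in the treated δ line and 3.68 to 3.75 in the untreated δ line, against 5.66 to 5.80 and 5.77 to 5.96 in the treated and untreated β line. Of the 4 tested, 2 passed with doxycycline, Krt14 and Krt8, with δ minus β differences of -3.67 and -2.11 with doxycycline (limma, adjusted p = 7.43e-05 and 0.000191). Without it 3 passed, Krt14, Krt8 and Krt18, with differences of -3.74, -1.88 and -0.74 (limma, adjusted p = 6.27e-05, 0.000261 and 0.00367). Over all genes 15.3% passed between the lines with doxycycline and 13.2% without it. The 8 endothelial markers summed to 2.49 to 2.53 in the treated and 1.92 to 2.03 in the untreated δ line, against 1.22 to 1.34 in the treated and 0.68 to 1.12 in the untreated β line. Of the 5 endothelial markers tested, 1 passed between the lines, Kdr, a receptor for vascular growth factors, which was higher in the δ line by 1.53 with doxycycline and 1.87 without it (adjusted p = 0.000386 and 0.000166). Pecam1, an endothelial adhesion molecule, had differences of -0.09 and -0.40 (adjusted p = 0.794 and 0.240). Without Kdr the endothelial sum was -0.63 and -0.35 in the treated δ line, against -0.57 and -0.42 in the treated β line, and -0.55 and -0.75 in the untreated δ line, against -0.45 and 0.30 in the untreated β line. So the higher endothelial sum of the δ line rests on Kdr. The 7 cortical markers summed to 5.98 to 6.02 in the treated and 5.66 to 5.73 in the untreated δ line, against 5.88 to 6.10 and 5.78 to 6.03 in the β line, so they overlapped between the lines with doxycycline only. That sum rests almost wholly on Ctsl, at 5.97 to 6.02 in the treated δ line and 5.87 to 6.09 in the treated β line. Of the 6 cortical markers tested, 1 passed between the lines, Prss16. It was lower in the δ line by -0.87 with doxycycline and -1.23 without it (limma, adjusted p = 0.0432 and 0.0151). The 6 thymocyte markers summed to 4.19 to 4.31 and 4.11 to 4.31 in the treated and untreated δ line, against 4.46 to 5.06 and 4.30 to 4.41 in the β line. The 5 fibroblast markers summed to 8.87 to 8.89 and 8.84 to 8.87 in the treated and untreated δ line, against 8.96 to 9.18 and 8.82 to 8.92 in the β line. The thymocyte and fibroblast sums thus overlapped between the lines without doxycycline only. Single fibroblast markers differed in opposite directions. With doxycycline Col1a1 was lower in the δ line by -0.59 and Col1a2 higher by 0.44 (limma, adjusted p = 0.0228 and 0.0452). Without it only Col1a2 of the 5 passed, higher by 0.62 (adjusted p = 0.0164). Thy1 had larger differences that did not pass, -2.13 ± 1.03 with doxycycline and -3.86 ± 1.03 without it (limma, adjusted p = 0.216 and 0.0609). Its treated arrays read 3.49 and 3.54 in the δ line and 5.63 and 5.65 in the β line. The untreated δ arrays lay far apart, at -0.004 and 3.57, which widens the SE of both differences. Of the 4 thymocyte markers tested, 0 passed between the lines. The part of these markers, and of the number of probes above background, in the connexin differences was not tested. In these bulk samples fewer cells of a type and less RNA per cell cannot be told apart.

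Of 16 genes tested that bind, assemble or remove connexins, 0 passed with doxycycline in either line by limma. An unadjusted p under 0.05 was reached by 4 in the δ line and 5 in the β line, beside 2856 and 3465 of all 19024 genes. Between the lines 2 of the 16 passed in both treatments, Nedd4 and Ccn3, beside 15.3% of all genes with doxycycline and 13.2% without it. Nedd4, a ubiquitin ligase that promotes internalisation of Cx43, had levels of 5.46 and 5.41 with doxycycline and 5.19 and 5.14 without it in the δ line, and 4.90 and 4.93 with it and 4.51 and 4.61 without it in the β line. It was higher in the δ line by 0.52 ± 0.09 with doxycycline and 0.61 ± 0.09 without it (adjusted p = 0.0146 and 0.00819). Ccn3, a secreted protein that binds the Cx43 tail, was not well above background on the untreated arrays of either line, so no fold is given there, and that call was lost without the untreated β replicate 2 (adjusted p = 0.0728). A spot of its probe lies in a deviant tile of the untreated δ replicate 1. With doxycycline its difference was 0.95 ± 0.18 (adjusted p = 0.0223), and it was lost without the treated δ replicate 2 (0.122) or either treated β replicate (0.112 and 0.0608). With normexp background correction the Ccn3 difference with doxycycline was 0.04 (adjusted p = 0.864) and the untreated call was lost too (0.217). The Gja1 scaffold Tjp1 differed between the lines by 0.15 with doxycycline and 0.05 without it (adjusted p = 0.375 and 0.798). The median difference of the 16 was 0.08 with doxycycline and 0.03 without it.

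Of 10 kinases known to phosphorylate connexins, 1 passed between the lines with doxycycline and 2 without it, all higher in the δ line, beside 15.3% and 13.2% of all genes. Prkcd, a protein kinase C, had levels of 2.92 and 2.91 with doxycycline and 3.32 and 3.22 without it in the δ line, and 2.25 and 2.32 with it and 2.80 and 2.79 without it in the β line. It was higher in the δ line by 0.63 ± 0.09 with doxycycline and 0.47 ± 0.09 without it (adjusted p = 0.00718 and 0.0196). The first call was lost without either treated δ array (0.0830 and 0.0749). The second was lost without either untreated β array (0.0591 and 0.0534), either treated δ array (0.0688 each) or the untreated δ replicate 1 (0.0863). Prkce, another protein kinase C, was higher without doxycycline by 0.62 ± 0.15 (adjusted p = 0.0444), and without any 1 of the untreated arrays or of the treated δ arrays the adjusted p lay between 0.0689 and 0.142. With doxycycline 0 kinases passed by limma in either line. At an unadjusted p under 0.05 were 2 in each, beside 2856 of all 19024 genes in the δ line and 3465 in the β line. The difference of Prkcd was -0.36 in the δ line and -0.51 in the β line (adjusted p = 0.216 and 0.0711). The median line difference of the 10 was 0.17 with doxycycline and 0.18 without it.

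Of 13 transcription factors known to act on connexin promoters, 11 were tested. Gata4, which acts on the Gja5 promoter in heart cells, was higher in the δ line by 0.98 ± 0.09 with doxycycline and 1.13 ± 0.09 without it (adjusted p = 0.00162 and 0.000798), and both calls held in all 17 settings of the processing tried. Its levels were 0.85 and 0.78 with doxycycline and averaged 0.98 without it in the δ line, and were -0.11 and -0.22 with it and -0.18 and -0.13 without it in the β line. Tbx3, a repressor of Gja1 and Gja5 in the conduction system, was lower in the δ line by -0.86 ± 0.11 with doxycycline and -1.09 ± 0.11 without it (adjusted p = 0.00629 and 0.00246). Its levels were -0.44 and -0.55 with doxycycline and -1.15 and -1.02 without it in the δ line, and 0.33 and 0.39 with it and -0.11 and 0.11 without it in the β line. The Tbx3 call with doxycycline was lost without the treated δ replicate 1 (0.0516) or replicate 2 (0.0669). Jun, a subunit of AP-1, was lower in the δ line with doxycycline by -0.77 ± 0.18 (adjusted p = 0.0390). Fos, its AP-1 partner, had differences with doxycycline of 0.90 ± 0.13 in the δ line and 0.97 ± 0.13 in the β line, with adjusted p = 0.0978 and 0.0569. No regulator passed with doxycycline in either line by limma. At an unadjusted p under 0.05 were 2 in the δ line and 4 in the β line, beside 2856 and 3465 of all 19024 genes. The median line difference of the 11 was 0.08 with doxycycline and -0.11 without it.

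The other cell junctions were read beside 15.3% of all genes passing between the lines with doxycycline and 13.2% without it, and nothing particular to a list is read from its count. Of 12 tested desmosome genes, 3 were lower in the δ line with doxycycline and 2 without it. The plakophilin Pkp3, a desmosomal plaque protein, was lower by -1.37 ± 0.16 and -1.17 ± 0.16 (adjusted p = 0.00381 and 0.00605), and with normexp background correction the differences were -0.73 and -0.34, the second call being lost (0.285). Its level on the untreated δ replicate 2, -5.32, lay below the lowest signal well above background on that array, -5.28. Pkp1 was lower by -0.61 ± 0.14 in both treatments (adjusted p = 0.0398 and 0.0423), and Perp, a membrane protein of desmosomes, by -0.61 ± 0.13 with doxycycline (adjusted p = 0.0302). A spot of the Pkp1 probe lies in a deviant tile of the untreated δ replicate 1. Of 13 tight junction genes, 2 were lower with doxycycline and 1 without it. Ocln, which encodes occludin, had levels of -5.66 and -5.73 with doxycycline in the δ line, against -3.76 and -3.78 in the β line, a difference of -1.92 ± 0.22 (adjusted p = 0.00338). Without doxycycline Ocln was not well above background in the δ line and was at least 3.19-fold lower there than in the β line (adjusted p = 0.000374). Cldn6, a claudin of embryonic epithelium, was lower with doxycycline by -1.76 ± 0.39 (adjusted p = 0.0336). With normexp the treated differences of Ocln and Cldn6 were -0.94 and -1.17, and both calls held (adjusted p = 0.00169 and 0.0154). The untreated Ocln call held with normexp too, at -1.21 (limma, adjusted p = 0.000436). That difference is smaller than the 3.19-fold bound, which therefore applies to the main processing only.

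Of 9 adherens junction genes, 2 were lower in the δ line with doxycycline and 1 was higher without it. Nectin4 and Nectin1, immunoglobulin-like adhesion molecules, were lower by -0.74 ± 0.12 and -0.59 ± 0.12 (adjusted p = 0.0141 and 0.0266). Ctnnd1, the p120 catenin gene, was higher without doxycycline by 0.51 ± 0.12 (adjusted p = 0.0404). Leaving out any 1 of the 4 arrays compared ended the doxycycline calls of Jun, Nedd4, Pkp1, Perp, Cldn6 and Nectin1, with adjusted p-values between 0.0595 and 0.212. The Nectin4 call was lost without the treated δ replicate 1 (0.115), the treated δ replicate 2 (0.0967) or the treated β replicate 2 (0.0692). The untreated call of Pkp1 was lost without the untreated δ replicate 2 (0.0917), the untreated β replicate 2 (0.118) or any 1 treated array (0.0910 for δ, 0.0788 for β). That of Ctnnd1 was lost without the untreated δ replicate 1 (0.144), the untreated β replicate 1 (0.134) or any 1 treated array (0.0967 for δ, 0.0691 for β).

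With doxycycline 0 desmosome, tight junction or adherens junction genes passed in either line by limma. At an unadjusted p under 0.05 there were 2, 3 and 1 in the δ line and 5, 2 and 4 in the β line. Of all 19024 genes, 2856 in the δ line and 3465 in the β line were so. The median δ minus β difference with and without doxycycline was -0.02 and 0.02 for desmosome genes, -0.27 and 0.01 for tight junction genes and 0.06 and 0.22 for adherens junction genes. Of the 3 pannexins, which form channels of similar topology in single membranes, Panx3 was lower with doxycycline in the β line by -1.68 ± 0.14 (adjusted p = 0.0360), a call lost without any 1 of the 4 β arrays or of the treated δ arrays (0.0669 to 0.222) and with normexp, where the difference was -1.04 (0.0671). Panx3 was higher and Panx1 lower in the δ line with doxycycline, and Panx1 was lower without it (adjusted p = 0.0145, 0.0248 and 0.0390), and the first 2 calls were lost without any 1 of the 4 arrays compared (0.0536 to 0.157). With normexp the Panx3 difference between the treated lines was 0.38, against 0.84 without that correction, and the call was lost (0.147). The untreated Panx1 call was lost without any 1 array other than the untreated β replicate 1 (0.0617 to 0.104).

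**Figure D4:**
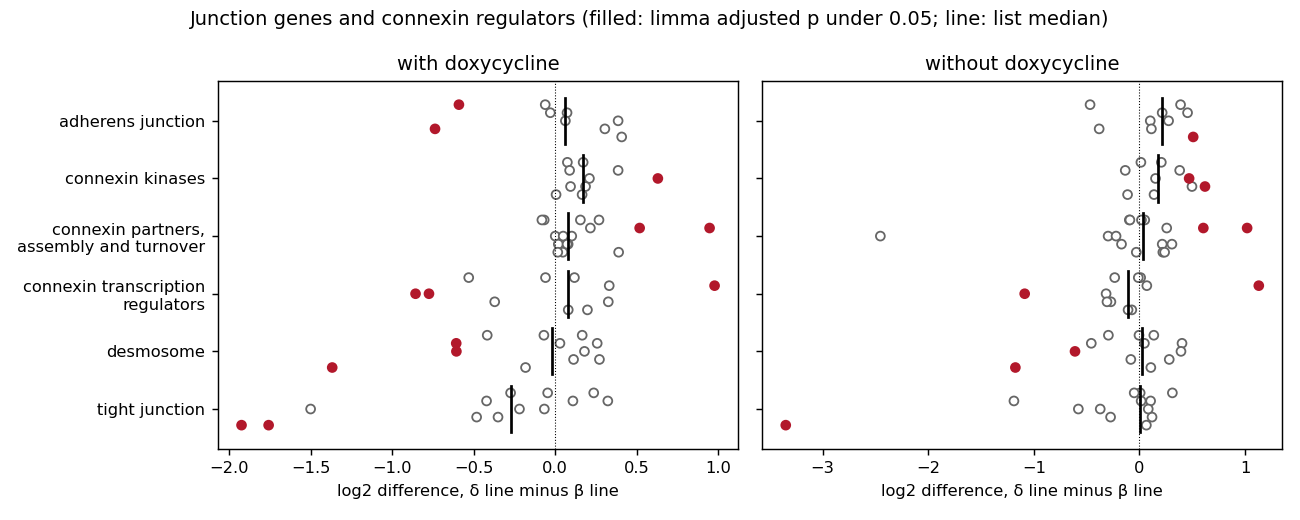
Log2 difference of the δ line minus the β line for each tested gene of 6 lists, with doxycycline on the left and without it on the right. Points are genes, filled where the limma adjusted p is under 0.05, and vertical lines are list medians. Filled tight junction and desmosome points lie left of 0 in both panels, with Ocln at -1.92 on the left, and the list medians lie between -0.27 and 0.22.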

How the data were processed

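RNA of TEC100.4 cells was hybridised to one-colour Agilent mouse arrays. Per the file headers, the authors used Agilent Feature Extraction 11.5.1.1 to quantify the scans. The deposited intensity values are linear spot brightness, background-subtracted and spatially detrended within each array. Deposited flags mark spots well above background, saturated or outlying, and no connexin probe was saturated. Groups came from the titles, as 4 groups of 2 arrays, and the number of arrays limits the precision.

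From the processed intensity the log2 was taken, control and outlier spots were left out, the spots of a probe were averaged and the 75th percentile of the array was taken off. Of 56605 probes, 32994 were named by matching the probe's transcript to a RefSeq table (GRCm38.p6), while the file headers name mm9, and sequences shown are RefSeq's. Probes flagged as well above background on each array of some group were kept (27216), and the brightest represents a gene (19024). limma 3.58.1 (R 4.3.3) fitted 4 group means over 8 arrays with 4 residual degrees of freedom, with Benjamini-Hochberg adjustment over all genes and a threshold of 0.05. The test was checked on simulated data. A fold is the power of 2 of the log2 difference. Where a group is not well above background, a fold is a bound, set against the higher of the probe's signal and the lowest signal well above background on each array.

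The connexins and the lists of other connexins, partners, kinases, transcription factors, junction genes, pannexins and markers were chosen with earlier results of these data known. From each list the rule names the genes past the threshold and up to 3 with the smallest p per comparison. Some of these genes are not reported here. Of the rest the text names all of the first and only some of the second, a choice made with the values known, and it names the scaffold Tjp1 and the markers outside the rule. Alternatives were normexp (offset 50), quantile normalization, median centring, 2 filters on dim probes, the mean over probes, leaving out deviant tiles, fitting only the arrays compared, array column as a block and leaving out each array. Normexp used median spot signals in place of the mean signals foreseen, which the columns used here do not include. Deviations of arrays in the same slide column correlated at 0.08 in the δ line and 0.02 in the β line. These values cannot show whether the arrays of a column were cultured or processed as pairs. The main fit left the column out, and the block was run as an alternative.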

Additional observations from a re-analysis of the deposited data

Results flagged for a closer look

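The effect of doxycycline on Gjb1 went opposite ways in the lines: both treated δ arrays were below both untreated δ arrays, and both treated β arrays were above both untreated β arrays. The δ effect minus the β effect was -0.75 ± 0.17 on the log2 scale (limma, unadjusted p = 0.00426, adjusted p = 0.649), so it failed the correction over 19024 genes. Its size lay between -0.86 and -0.63 over the alternatives, and it passed the threshold in none of those that kept both arrays of every group. The fit without the untreated δ replicate 2 rests on replicate 1 alone for that group. That is the array with the most deviant tiles, so no call is read from that fit. The probe has a spot in a deviant tile of the untreated δ replicate 1, and the part of that tile was not tested.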

How the results depend on the processing

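The counts of genes past the threshold with doxycycline moved with most settings, in the δ line from 14 and in the β line from 47. They were 5 and 13 with normexp, 7 and 14 with median centring, 803 and 2 with no filter on dim probes, 44 and 333 over genes well above background on all arrays, and 51 and 309 without the deviant tiles, where fewer genes were tested. The δ count was 31 with the mean over probes. Fitting only the arrays compared gave 1 and 0, and 716 between the untreated lines, against 2513 over all arrays. The replicate block (array column) gave 1 and 0 with doxycycline, 1320 and 1336 between the lines with and without the drug, against 2905 and 2513, and 0 for the difference in effect. That difference had 0 genes with normexp and over genes above background on all arrays, and 2 without the deviant tiles, against 1. Leaving out each array in turn gave 1 to 1621 genes in the δ line, 0 to 245 in the β line, 697 to 3255 and 1463 to 3761 between the lines with and without doxycycline, and 1 to 1056 for the difference in effect. The cause was not tested. Of the 5 connexins with levels, the sign of the difference was kept in all 17 settings by 3 genes with doxycycline in each line, by 2 between the treated lines and by 3 between the untreated lines. Gja1 was lower in the δ line in all 17, by -1.05 to -0.74 with doxycycline and -0.72 to -0.32 without it, while its β difference with doxycycline ran from -0.06 to 0.31. Of the 28 calls described for single genes, leaving aside those of the markers, Gtf2i and Gja1, the block ended 18, with adjusted p-values between 0.0513 and 0.214. These were the calls of Gjb1 (0.0620), Nedd4, Jun, Nectin1, Nectin4, Cldn6 and Perp between the treated lines, of Ctnnd1, Pkp3, Prkcd and Prkce between the untreated lines, of Ccn3, Pkp1 and Panx1 in both, and of Panx3 with doxycycline in the β line. Median centring ended 10 of the 28, among them Gjb1 (0.116), normexp 9, fitting only the arrays compared 9, no filter on dim probes 7, quantile normalization 2 and the mean over probes 1. Genes near background, such as Gjb2 and Gjb6, have no usable level at any setting here.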
